A study of Mus musculus with 24 samples.

Results

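Haematopoietic stem cell identity genes were followed across stem and progenitor cells of mice that carried a Flt3 internal tandem duplication, a floxed Ern1 allele with Vav-Cre, both, or neither. The set holds 34 genes chosen by symbol, and all 34 were found among the 23991 gene symbols measured. They are genes that mark or maintain haematopoietic stem cells. The rule names them by symbol without using a measured value, but the list was chosen with earlier results of these data known.

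RNA was sequenced from bone marrow cells of C57BL/6 mice, sorted as LSK cells (negative for lineage markers, positive for Sca1 and cKit) or as granulocyte-macrophage progenitors (GMP). LSK is a mixed gate of stem cells and multipotent progenitors, so stem cells are part of it. Each population had 4 groups with 3 libraries each: wild type (WT), Flt3-ITD with both Ern1 copies unaltered (ITD), Ern1(fl/fl)-VavCre without the duplication (IRE1_KO), and Ern1(fl/fl)-VavCre with Flt3-ITD (IRE1_KO_ITD). WT is the only control group and carries neither Cre nor a floxed allele. Vav-Cre acts in blood cells from their development onward and in part of the endothelium. The labels give neither the ages nor the number of animals behind a library, nor do they state that libraries of a group came from separate animals, so the p-values measure the spread between these libraries.

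Haematopoietic stem cells are kept at the top of the blood hierarchy by a network of transcription factors, among them Hlf, Mecom, Gata2, Tal1, Lmo2 and Erg, which act together on shared enhancers. Surface proteins such as Procr, Slamf1, Esam and Ly6a are used to sort them, and several members (Tek, Tie1, Robo4, Esam, Eng) are shared with endothelial cells, to which stem cells are developmentally related. Flt3 is a receptor tyrosine kinase of multipotent progenitors that is low on long-term stem cells, and its internal tandem duplication makes it signal without ligand. Ern1 encodes IRE1alpha, the sensor of endoplasmic reticulum stress that splices Xbp1 mRNA. By role, 12 members act in transcription and chromatin, 12 are receptors or other membrane proteins, 2 are secreted, 7 are cytoplasmic, and Msi2 binds RNA.

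Upstream sequence was taken from RefSeq for the mouse assembly GRCm38.p6, in which 27 of the 34 members had an entry, with 39 start sites between them. Of these sequences, 4, each the 250 bases before a start site and free of annotated exons, are shown because 3 belong to members that were lower in both comparisons of Flt3-ITD below, and the other to Tal1, the neighbour of Pdzk1ip1 on chromosome 4. Capitals mark the motif that was found, on either strand, in the window.
Hlf (chr11:90390918-90391167, minus strand, capitals CCGGAA, an ETS core): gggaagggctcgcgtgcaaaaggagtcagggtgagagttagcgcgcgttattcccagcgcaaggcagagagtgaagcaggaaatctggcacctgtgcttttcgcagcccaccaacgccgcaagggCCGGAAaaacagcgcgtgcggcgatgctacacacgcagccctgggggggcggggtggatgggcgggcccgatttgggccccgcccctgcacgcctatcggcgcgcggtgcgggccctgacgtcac
Myct1 (chr10:5593478-5593727, plus strand, capitals AGATAA, the core of GATA factor sites): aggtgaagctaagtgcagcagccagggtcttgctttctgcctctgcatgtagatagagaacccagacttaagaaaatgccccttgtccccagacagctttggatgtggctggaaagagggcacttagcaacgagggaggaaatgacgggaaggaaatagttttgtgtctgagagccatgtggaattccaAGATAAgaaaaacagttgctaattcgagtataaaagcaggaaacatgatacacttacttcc
Pdzk1ip1 (chr4:115088458-115088707, plus strand, capitals CAGCTG, an E-box): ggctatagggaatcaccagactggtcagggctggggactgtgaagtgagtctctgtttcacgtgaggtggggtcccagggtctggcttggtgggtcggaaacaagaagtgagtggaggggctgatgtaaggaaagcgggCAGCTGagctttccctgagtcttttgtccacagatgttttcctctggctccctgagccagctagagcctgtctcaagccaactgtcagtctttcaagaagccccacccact
Tal1 (chr4:115056176-115056425, plus strand, capitals the reverse complement of AGATAA): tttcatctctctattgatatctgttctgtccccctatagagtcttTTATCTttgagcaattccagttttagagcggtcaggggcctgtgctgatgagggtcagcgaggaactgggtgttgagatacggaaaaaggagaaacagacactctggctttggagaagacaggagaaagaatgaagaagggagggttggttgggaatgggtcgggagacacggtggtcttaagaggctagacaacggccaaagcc
The Hlf window was rich in G and C (67.2%, 26 CpG), whereas the Myct1 window had 45.6% and 3 CpG. Over all windows the shares were as follows. AGATAA was in 10.3% of the 39 member windows and in 9.99% of 32851 windows, CCGGAA in 7.69% and 12%, CAGCTG in 10.3% and 13%, and TTCNNNGAA (a STAT core) in 5.13% and 7.02%. TGACGTGG, an endoplasmic reticulum stress core, was in 0 of the 39 and in 0.563% of all windows. These letters are a description of the windows and not evidence of binding.

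Expression was given as FPKM, a level that takes transcript length and library size into account. FPKM summed to between 510400 and 571900 in LSK libraries and between 567300 and 673200 in GMP libraries. The tables hold no read totals, so no counting error could be attached. Correlations between libraries of a group ran from 0.941 to 0.966. By Xist and Y-linked genes the ITD libraries were all female (3 of 3 in each population), against 1 of 3 in WT, 2 of 3 in IRE1_KO and 1 of 3 in IRE1_KO_ITD. All 3 IRE1_KO LSK libraries, and no others, have 1ng in their column name, and Mir6236, a short locus, took 0.175% to 0.904% of FPKM in them and 4.41% to 6.24% elsewhere in LSK. Genotype and tag cannot be told apart there. Ern1 was higher and not lower in the libraries labelled IRE1_KO, at 7.62 ± 1.04 FPKM (SD, n = 3) against 4.34 ± 0.539 in WT LSK, and since 1 value covers the whole gene the deletion is taken from the labels. Flt3 was at 149.6 ± 9.45 FPKM in WT LSK and 55.7 ± 2.79 in ITD LSK, and Kit, which the gate requires, at 62.4 ± 12.5 and 50.1 ± 5.24.

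ITD replicate 1 stood apart from the other ITD libraries in both populations. In LSK its correlation with the mean of the other ITD libraries was 0.954, and 0.955 with the mean of IRE1_KO_ITD, and 21 of 33 members lay nearer to the IRE1_KO_ITD mean. The same count was 4 for ITD replicate 2 and 2 for replicate 3. In GMP the correlations of ITD replicate 1 were 0.947 and 0.958, and 13 of 19 members lay nearer to IRE1_KO_ITD. Counts that rest on this library are given below with and without it. WT LSK replicate 1, the female WT library, had the lowest of the WT values for 22 of 34 members.

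The members were measured first in WT, where GMP were set against LSK. Nearly all of the set was lower in GMP, the more differentiated cells. Of the 33 members tested, 31 fell and 0 rose at limma adjusted p under 0.05, where 31.3% of all 12348 tested genes fell and 19% rose. The median difference was -1.93 log2 units (-0.11 over all genes). With median-ratio size factors the split of all calls went from 2341 higher and 3871 lower to 3397 and 3137, and 30 members fell. Of the 33, 21 reached the expression filter (1 FPKM or more in 3 or more of the fitted libraries) through LSK alone within this pair, so a fall was built into them; all 11 that reached it in both populations fell. Fold changes are differences of log2(FPKM + 1), so that changes of low genes come out smaller than they are, and ± after them is the SE of the fit.

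Ctla2a, a cysteine protease inhibitor of the cathepsin propeptide family, was the most abundant member in LSK at 309, 880 and 740 FPKM and stood at 5.20, 26.8 and 17.0 in GMP. It fell by 5.33 ± 0.49. Pdzk1ip1, a small membrane protein also called MAP17, stood at 45.7, 49.2 and 44.4 FPKM in LSK and at 1.11, 1.73 and 0.736 in GMP. It fell by 4.46 ± 0.32. Procr, the endothelial protein C receptor, stood at 16.9, 30.5 and 26.2 FPKM in LSK and 0.679, 0.503 and 0.504 in GMP, a fall of 3.99 ± 0.22. For each of these genes every LSK library lay above every GMP library. The adhesion molecule Esam, at 0.166, 0.178 and 0.159 FPKM in GMP, fell by 3.96 ± 0.27. The transcription factor Hlf, at 0.816, 0.426 and 0.763 FPKM in GMP, fell by 3.55 ± 0.21. Myct1 fell by 3.37 ± 0.25, the growth suppressor Ndn (necdin) by 3.30 ± 0.20 and Ly6a, which encodes the Sca1 of the sort gate, by 3.12 ± 0.30. The limma adjusted p of these 8 was 9.89e-08 or lower. Sca1 is part of the LSK gate, so the Ly6a difference is no independent finding.

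The exceptions were Apoe and Sult1a1. Apoe, the lipid carrier apolipoprotein E, stood at 102, 97.8 and 72.3 FPKM in LSK and 56.9, 94.2 and 84.3 in GMP (-0.22 ± 0.36, limma adjusted p = 0.643), and the ranges overlapped. Sult1a1, a sulfotransferase, was low in both at 1.31, 1.03 and 1.06 FPKM in LSK and 1.31, 0.841 and 1.01 in GMP (-0.06 ± 0.40, limma adjusted p = 0.924). The transcription factors Lmo2 and Gata2 fell but stayed measurable in GMP. Lmo2 stood at 91.8, 84.7 and 95.8 FPKM in GMP and Gata2 at 8.14, 7.25 and 6.995. The immediate early factor Egr4 had the smallest of the called falls, at -0.54 ± 0.22 (limma adjusted p = 0.0446, and 0.0535 to 0.149 when any single WT library was left out). Under 1 FPKM in all 12 GMP libraries were 13 members: Mecom, Fgd5, Slamf1, Ndn, Gata3, Tek, Robo4, Esam, Fhl1, Trpc6, Tgm2, Clec1a and Egr4. Clec1a, a C-type lectin receptor, was under 1 FPKM in LSK too, at no more than 0.349, and passed no test's filter.

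**Figure D1:**
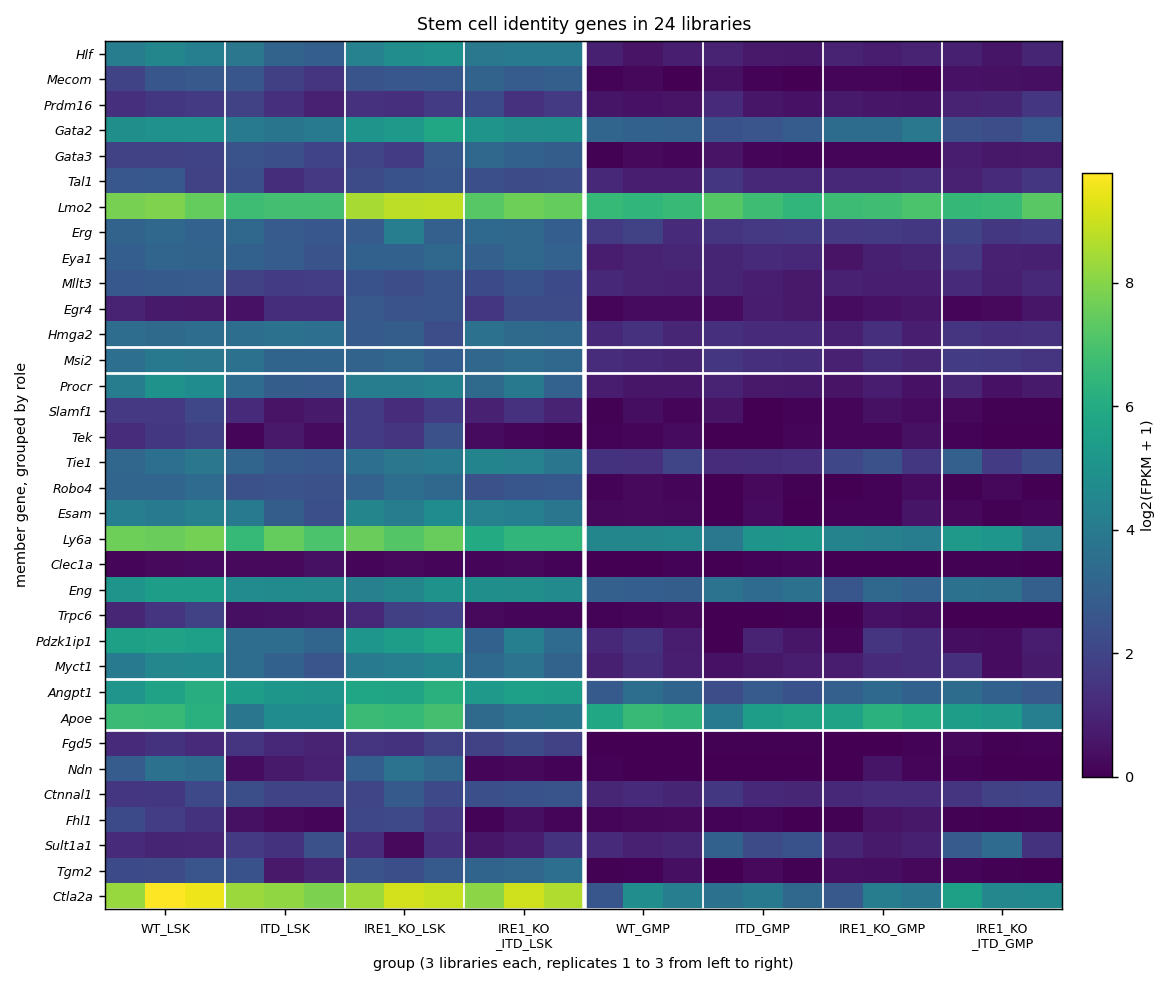
Levels of the 34 stem cell identity genes as log2(FPKM + 1) in 24 libraries, 3 in each of 8 groups, with members grouped by role as transcription and chromatin, RNA binding, membrane, secreted and cytoplasmic (from the top). The LSK libraries on the left are brighter than the GMP libraries for most rows, and 13 rows stay under 1 FPKM in every GMP library.

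The first Flt3-ITD comparison set ITD against WT in LSK. Of 33 tested members 17 fell, from the adhesion and receptor proteins to the transcription factors, and 0 rose, where 7.27% of all 11955 tested genes fell and 14.9% rose. The members' median was -0.81 log2 units, with 28 of 33 below 0, against 0.08 for all genes. The falls held 10 of the 11 membrane proteins tested (median -1.04), 4 of the 12 transcription and chromatin genes (median -0.38), 2 of 7 cytoplasmic and 1 of 2 secreted members. Whether roles differed was not tested. Under quantile normalization the split of all calls went from 1781 higher and 869 lower to 1251 and 1116, and 19 members fell, with Ly6a and Msi2 added. All 17 had ranges that did not overlap, which is a description only, since the share of all called genes without overlap was not counted. Fewer cells of a type and less RNA per cell cannot be told apart in such bulk libraries.

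On the log2(FPKM + 1) scale Pdzk1ip1 had the largest difference of the membrane members, while by the ratio of mean FPKM Tek (6.70) and Trpc6 (5.19) were ahead of it (4.88). Its level was 45.7, 49.2 and 44.4 FPKM in WT LSK and 10.2, 10.2 and 8.15 in ITD, and it fell by 2.18 ± 0.26 (limma adjusted p = 0.000645). Procr fell from 16.9, 30.5 and 26.2 FPKM to 9.65, 6.34 and 6.25, by 1.59 ± 0.25 (limma adjusted p = 0.00246). Both pairs of ranges were well apart. Myct1, a target gene of Myc that is expressed in stem cells and endothelium, stood at 14.9, 21.9 and 22.6 FPKM in WT and 10.2, 7.23 and 4.95 in ITD (-1.32 ± 0.24, limma adjusted p = 0.00482). Tek, the angiopoietin receptor Tie2, stood at 1.36, 1.97 and 2.66 FPKM in WT and 0.0961, 0.580 and 0.218 in ITD (-1.20 ± 0.24, limma adjusted p = 0.00728). The related receptor Tie1 fell less, from 8.36, 10.9 and 13.7 to 8.21, 5.80 and 5.27 FPKM (-0.69 ± 0.22, limma adjusted p = 0.0450), with its highest ITD value, that of replicate 1, just under the lowest WT value. Esam stood at 17.4, 15.9 and 18.4 FPKM in WT and 14.7, 6.47 and 4.22 in ITD, where again replicate 1 was the high library (-1.10 ± 0.33, limma adjusted p = 0.0353).

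Slamf1 (CD150), the SLAM marker of stem cells, was low in all libraries, at 2.07, 2.10 and 3.21 FPKM in WT and 1.32, 0.417 and 0.628 in ITD (-0.97 ± 0.22, limma adjusted p = 0.0121). The calcium channel Trpc6 fell by 1.04 ± 0.24, the guidance receptor Robo4 by 0.81 ± 0.13 and Eng (endoglin, a TGF-beta co-receptor) by 0.67 ± 0.17. Robo4 was among the steadiest, with 8.16, 8.21 and 9.62 FPKM in WT and 4.39, 4.67 and 4.39 in ITD. Ly6a stood at 196, 186 and 210 FPKM in WT and 91.8, 174 and 128 in ITD and did not pass (-0.63 ± 0.21, limma adjusted p = 0.0529), although its ranges did not overlap.

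Of the transcription members, Hlf, a PAR-type leucine zipper factor of stem cells, stood at 16.4, 21.5 and 17.7 FPKM in WT and 13.7, 7.56 and 6.597 in ITD (-0.98 ± 0.23, limma adjusted p = 0.0143). Gata2 was lower by a like amount with a far narrower spread, at 28.4, 29.6 and 29.7 FPKM in WT and 15.6, 12.8 and 14.8 in ITD (-0.98 ± 0.17, limma adjusted p = 0.00352). Mllt3 (AF9), a chromatin reader that helps maintain stem cells, fell by 0.96 ± 0.12, and Lmo2, a bridging protein of the Tal1 complex, by 0.90 ± 0.14. Lmo2 stood at 220, 238 and 175 FPKM in WT and 106, 115 and 114 in ITD. Others of the network did not pass. Mecom (Evi1) stood at 3.01, 5.17 and 5.65 FPKM in WT and 5.07, 2.59 and 1.87 in ITD (-0.47 ± 0.26, limma adjusted p = 0.217), and Gata3 at 2.79, 2.78 and 2.998 against 4.68, 4.22 and 2.92 (0.34 ± 0.23, limma adjusted p = 0.320). Prdm16, Tal1, Erg, Eya1, Hmga2 and Egr4 had differences between -0.65 and 0.23 with limma adjusted p of 0.116 or higher. Msi2, a translational regulator of stem cells, stood at 10.8, 14.4 and 13.6 FPKM in WT and 11.5, 7.90 and 7.87 in ITD (limma adjusted p = 0.0566).

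The largest difference, on the log2 scale and by ratio, was that of Ndn, a MAGE family protein linked to stem cell quiescence, at 6.25, 11.9 and 9.999 FPKM in WT and 0.264, 0.629 and 0.845 in ITD. It fell by 2.70 ± 0.24 on the log2(FPKM + 1) scale (limma adjusted p = 0.000209), and the ratio of mean FPKM was 16.2. Fhl1, a LIM domain protein, stood at 3.57, 2.43 and 1.69 FPKM in WT and 0.362, 0.202 and 0.140 in ITD (-1.5 ± 0.20, limma adjusted p = 0.00128; ratio of means 10.9). Of the secreted members, Apoe stood at 102, 97.8 and 72.3 FPKM in WT and 13.4, 25.9 and 26.1 in ITD (-2.05 ± 0.24, limma adjusted p = 0.000569). Angpt1, the ligand of Tek, stood at 33.6, 48.5 and 67.0 FPKM in WT and 43.3, 35.5 and 32.3 in ITD and did not pass (-0.37 ± 0.22, limma adjusted p = 0.252). Fgd5, a nucleotide exchange factor used as a stem cell reporter, stood at 1.25, 1.73 and 1.27 FPKM against 1.84, 1.15 and 0.921 (-0.08 ± 0.19, limma adjusted p = 0.790). The ranges of Fgd5 and of Angpt1 overlapped. The 16 members that did not pass had differences from -1.09 to 0.76. Among them were Ctla2a, with a mean of 643 FPKM in WT and 277 in ITD, and Sult1a1, with 1.13 and 2.76. Ctla2a passed with the replicate number as a block and without WT replicate 1.

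Of the 33 tested, 8 reached the expression filter through WT alone within this pair, and 5 of those fell (Fhl1, Ndn, Slamf1, Tek and Trpc6); of the 24 that reached it in both groups, 12 fell. Leaving out ITD replicate 1 gave 21 falls, adding Mecom, Msi2, Tal1 and Tgm2 to the 17, and leaving out WT replicate 2 or ITD replicate 3 gave 13. With sex as a covariate 13 fell, without Slamf1, Tie1, Esam and Eng. Other cell types moved in the same comparison. The summed FPKM of 9 late neutrophil genes was 4924 to 9970 in WT and 476 to 2411 in ITD, that of 10 erythroid genes 840.0 to 1932 and 254 to 729, that of 7 B cell genes 122 to 205 and 40.3 to 61.2, that of 11 megakaryocyte genes 165 to 176 and 75.7 to 104, and that of 10 endothelial genes 43.0 to 56.9 and 25.3 to 32.5. The 9 macrophage genes summed to 10.3 to 18.8 FPKM in WT and 8.11 to 13.2 in ITD. Of the 10 endothelial genes, 4 were under 1 FPKM in all WT LSK libraries and 8 in all ITD LSK libraries. Pecam1 (20.1 to 28.4 FPKM in WT and 14.2 to 20.9 in ITD) and Emcn (14.5 to 22.8 and 5.91 to 9.93) made up most of the sum, Tek is itself on the list, and Cdh5, Kdr and Sox17 were at most 0.636, 0.724 and 0.138 FPKM. The part of the mature cell genes in the members' differences was not tested.

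**Figure D2:**
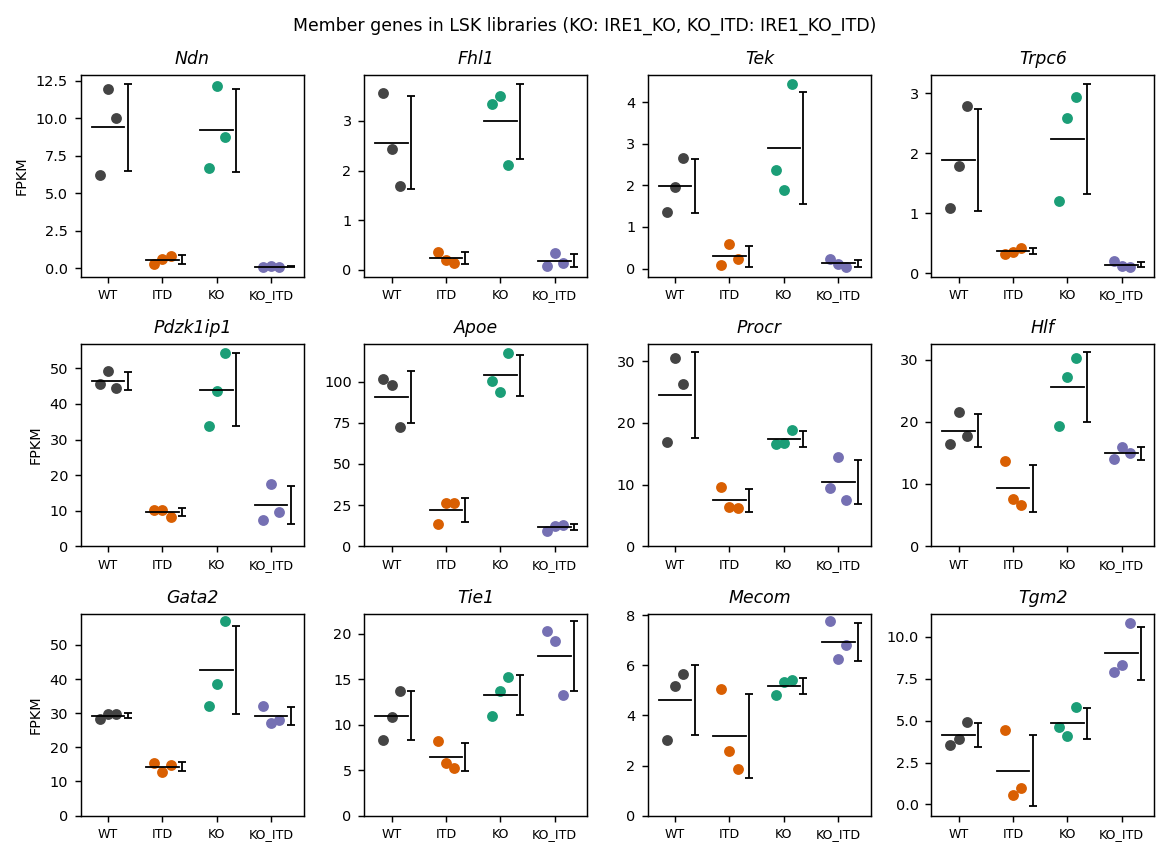
FPKM of 12 members in the LSK libraries of each genotype; points are libraries, horizontal lines the mean and vertical bars the SD (n = 3). Ndn, Fhl1, Tek, Trpc6, Pdzk1ip1, Apoe, Procr and Hlf are below WT and IRE1_KO in all 6 Flt3-ITD libraries, while Tie1, Mecom and Tgm2 have their highest mean in IRE1_KO_ITD.

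IRE1_KO_ITD was next set against IRE1_KO in LSK, a comparison of Flt3-ITD that shares no library with the first. Here 13 of 33 members fell and 2 rose, where 19.6% of all tested genes fell and 11.7% rose. The members' median was -0.30 log2 units, with 22 of 33 below 0, and that of all genes -0.04. Under quantile normalization the split of all calls went from 1399 higher and 2340 lower to 2070 and 1824, and 11 members fell, without Procr and Gata2. With median-ratio size factors 10 fell, without Hlf, Procr and Gata2. With sex as a covariate 11 fell, without Hlf and Gata2. Of the 13 falls, 12 were also called in ITD against WT: Apoe, Fhl1, Gata2, Hlf, Lmo2, Myct1, Ndn, Pdzk1ip1, Procr, Robo4, Tek and Trpc6. They are 70.6% of the 17 and 92.3% of the 13. The share of all tested genes that fell in both comparisons was not counted, so this overlap is a description. In this pair 5 members (Fhl1, Ndn, Slamf1, Tek and Trpc6) reached the expression filter through IRE1_KO alone, and 4 of those fell, which leaves 9 falls. The same 4, Fhl1, Ndn, Tek and Trpc6, reached it through WT alone in the first pair, so a fall was built into them in both. Ly6a was the other fall. Across the 33 members, with Fhl1, Ndn, Tek and Trpc6 included, the differences of the 2 comparisons had Pearson's r = 0.773 and Spearman's rho = 0.712. This is a description over genes, which are not independent replicates.

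Ndn stood at 6.67, 12.2 and 8.74 FPKM in IRE1_KO and 0.104, 0.144 and 0.0576 in IRE1_KO_ITD (-3.17 ± 0.24, limma adjusted p = 1.52e-05). Apoe stood at 100.2, 93.7 and 117 FPKM and 9.43, 12.2 and 13 (-3.07 ± 0.24, limma adjusted p = 1.56e-05). Pdzk1ip1 stood at 33.9, 43.7 and 54.4 FPKM and 7.25, 17.6 and 9.72 (-1.91 ± 0.26, limma adjusted p = 0.000306). On the log2(FPKM + 1) scale these also had the largest differences in ITD against WT. Tek stood at 2.37, 1.89 and 4.44 FPKM and 0.222, 0.108 and 0.0320 (-1.75 ± 0.24), and Fhl1 at 3.34, 3.51 and 2.12 and 0.0729, 0.337 and 0.140 (-1.74 ± 0.20). Trpc6 stood at 1.204, 2.58 and 2.94 FPKM in IRE1_KO and 0.198, 0.125 and 0.109 in IRE1_KO_ITD (-1.46 ± 0.24). The limma adjusted p of Tek, Fhl1 and Trpc6 was 0.00101 or lower, and none of these ranges overlapped.

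Lmo2 stood at 364, 453 and 458 FPKM in IRE1_KO and 151, 197 and 179 in IRE1_KO_ITD (-1.27 ± 0.14, limma adjusted p = 7.96e-05). The IRE1_KO values were above the 175 to 238 FPKM of WT. Ly6a stood at 187, 141 and 184 FPKM and 62.1, 85.7 and 84.8 (-1.13 ± 0.21, limma adjusted p = 0.00226). Hlf was lower with 19.3, 27.1 and 30.2 against 13.9, 16.0 and 14.9 FPKM (-0.71 ± 0.23, limma adjusted p = 0.0392), and Procr with 16.5, 16.7 and 18.9 against 9.36, 14.4 and 7.46 (-0.73 ± 0.25, limma adjusted p = 0.0497). Gata2 was lower with 32.2, 38.4 and 57.0 against 32.1, 27.3 and 28.1 FPKM (-0.49 ± 0.17, limma adjusted p = 0.0469), where the highest IRE1_KO_ITD library lay just under the lowest IRE1_KO library. Robo4 fell by 0.70 ± 0.13 and Myct1 by 0.83 ± 0.24.

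The rises were Gata3 and Hmga2. Gata3 stood at 3.11, 2.32 and 5.71 FPKM in IRE1_KO and 8.52, 7.14 and 6.31 in IRE1_KO_ITD (0.88 ± 0.23, limma adjusted p = 0.0158). Hmga2, a chromatin protein of fetal stem cells, stood at 5.89, 6.30 and 3.94 FPKM in IRE1_KO and 11.6, 9.45 and 8.88 in IRE1_KO_ITD (0.80 ± 0.15, limma adjusted p = 0.00219), against 10.3, 9.52 and 10.2 in WT. Mecom, Fgd5, Slamf1 and Angpt1 did not pass. Mecom stood at 4.80, 5.32 and 5.40 FPKM in IRE1_KO and 7.75, 6.25 and 6.81 in IRE1_KO_ITD (0.36 ± 0.26), and Fgd5 at 1.8, 1.68 and 2.85 against 2.79, 3.80 and 2.74 (0.41 ± 0.19). Slamf1 stood at 2.24, 1.37 and 2.22 against 0.886, 1.60 and 0.895 FPKM (-0.47 ± 0.22), and Angpt1 at 53.6, 51.4 and 72.6 against 37.4, 44.8 and 42.9 (-0.48 ± 0.22). The limma adjusted p of these 4 was 0.123 or higher.

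The calls of Hlf, Procr, Gata2 and Myct1 here were close to the threshold. Leaving out single libraries gave 9 to 12 falls and 1 to 4 rises. Without IRE1_KO replicate 3 the Gata2 difference was -0.27 (limma adjusted p = 0.115), and without IRE1_KO replicate 1 or 2 or IRE1_KO_ITD replicate 1 Gata3 did not pass (limma adjusted p = 0.0507 to 0.0611). All IRE1_KO LSK libraries carry the 1ng tag, so each of these differences also compares tagged with untagged libraries. Summed marker levels differed as well. The late neutrophil genes summed to 4694 to 11720 FPKM in IRE1_KO and 114 to 395 in IRE1_KO_ITD, the erythroid genes to 1403 to 2610 and 527 to 762, and the B cell genes to 163 to 194 and 29.0 to 35.8. The megakaryocyte genes summed to 154 to 192 FPKM and 114 to 137.5, and the endothelial genes to 43.3 to 57.1 and 28.1 to 30.7. None of these ranges overlapped, and their part in the result was not tested. Over both comparisons, 10 members (Hlf, Procr, Ndn, Apoe, Tek, Robo4, Fhl1, Trpc6, Myct1 and Pdzk1ip1) had all 6 Flt3-ITD LSK libraries below all 6 others, as did 5.98% of all tested genes, and 0 members had all 6 above (6.37% of all genes). Of the 10, Ndn, Tek, Fhl1 and Trpc6 reached the filter only through the groups without Flt3-ITD.

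**Figure D3:**
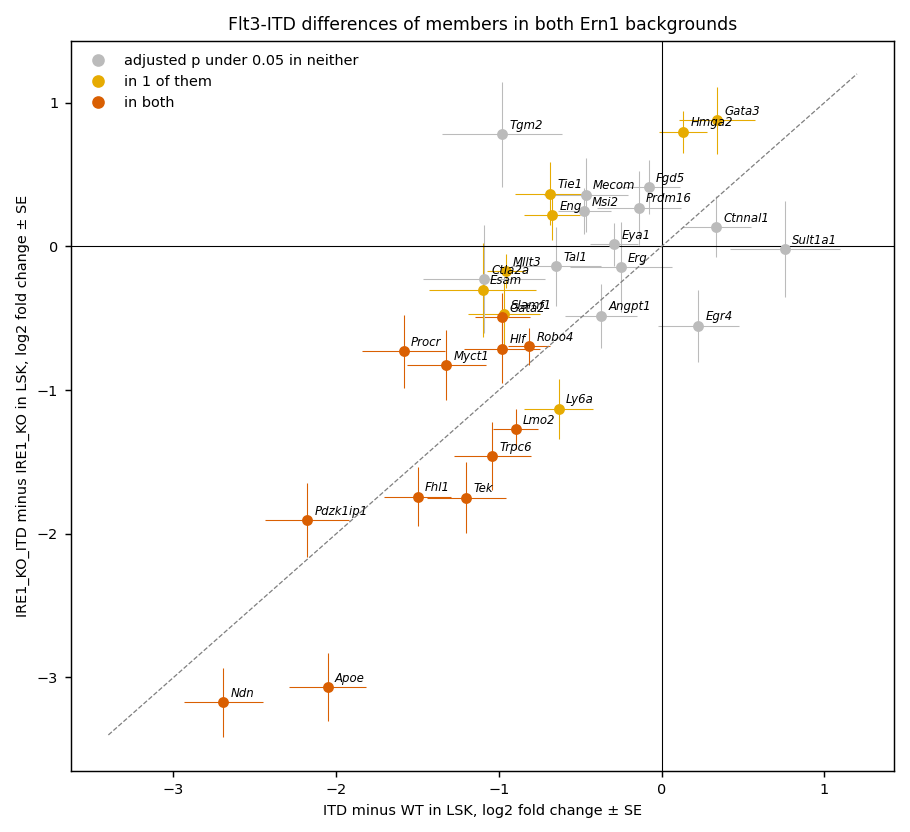
Log2 fold change ± SE of each of 33 members for Flt3-ITD in LSK, in libraries without (x axis) and with the Ern1 label (y axis), on the log2(FPKM + 1) scale; the dashed line marks equal values. The 12 members that passed in both comparisons lie at the lower left, with Ndn and Apoe furthest out.

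IRE1_KO was set against WT in LSK to see the set under the Ern1 label alone. Most members did not pass: 2 rose and 3 fell of 33, where 21% of all tested genes rose and 2.72% fell. The members' median was 0.15 log2 units and that of all genes 0.14. Lmo2 rose from 220, 238 and 175 FPKM in WT to 364, 453 and 458 in IRE1_KO (1.01 ± 0.14, limma adjusted p = 0.000272). Egr4, which reached the expression filter through IRE1_KO alone, rose from 0.983, 0.636 and 0.577 to 5.62, 4.62 and 4.83 FPKM (1.802 ± 0.25, limma adjusted p = 0.000316). Neither gene's ranges overlapped.

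Hmga2 fell from 10.3, 9.52 and 10.2 to 5.89, 6.30 and 3.94 FPKM (-0.80 ± 0.15, limma adjusted p = 0.00210). Msi2 fell from 10.8, 14.4 and 13.6 to 7.71, 8.54 and 6.58 FPKM (-0.69 ± 0.16, limma adjusted p = 0.00966), and Eng from 32.8, 42.9 and 42.7 to 17.9, 21.6 and 31.2 (-0.74 ± 0.17, limma adjusted p = 0.00895). Each kept its call in every alternative run. Hlf (0.43 ± 0.23), Gata2 (0.49 ± 0.17), Ndn (-0.02 ± 0.24) and Procr (-0.44 ± 0.25) did not pass. The tagged libraries make up the whole IRE1_KO group, so label and tag cannot be told apart in these values. Quantile normalization moved the median of all genes to -0.08 and changed the split of all calls from 2506 higher and 325 lower to 1408 and 1166; the members' calls under it were the same 5 with Mllt3 added as lower.

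Within Flt3-ITD LSK cells, IRE1_KO_ITD was set against ITD, a comparison that holds no tagged library. Of 33 members 10 rose and 2 fell, where 13.3% of all tested genes rose and 6.96% fell. The ITD libraries are the same as in ITD against WT. A member low in them therefore tends toward a fall there and a rise here, and the 2 results are not independent. Of the 12 transcription and chromatin members, 6 rose (Mecom, Gata2, Gata3, Lmo2, Mllt3 and Egr4), with a median of 0.60 over the 12. The others were Tie1, Esam, Fgd5 and Tgm2. The members' median was 0.35 log2 units and that of all genes 0.06. With median-ratio size factors the split of all calls went from 1586 higher and 832 lower to 1331 and 1157, and 9 members rose, without Esam. Egr4, Fgd5, Prdm16 and Tgm2 reached the expression filter through IRE1_KO_ITD alone within this pair, and 3 of those (Egr4, Fgd5 and Tgm2) are among the rises, which leaves 7. Summed marker levels also differed without overlap, at 75.7 to 104 FPKM in ITD and 114 to 137.5 in IRE1_KO_ITD for the megakaryocyte genes, 476 to 2411 and 114 to 395 for the late neutrophil genes, and 40.2 to 61.2 and 29.0 to 35.8 for the B cell genes. Their part in the result was not tested.

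Tgm2, tissue transglutaminase, had the largest rise, with 4.45, 0.582 and 0.997 FPKM in ITD and 7.87, 8.34 and 10.8 in IRE1_KO_ITD (1.94 ± 0.37, limma adjusted p = 0.00573). Tie1 stood at 8.21, 5.80 and 5.27 FPKM in ITD and 20.3, 19.2 and 13.2 in IRE1_KO_ITD (1.32 ± 0.22, limma adjusted p = 0.00343). In Tgm2 the high ITD library was again replicate 1. Gata2 stood at 15.6, 12.8 and 14.8 FPKM in ITD and 32.1, 27.3 and 28.1 in IRE1_KO_ITD (0.97 ± 0.17, limma adjusted p = 0.00397), next to 28.4 to 29.7 in WT. Mecom stood at 5.07, 2.59 and 1.87 against 7.75, 6.25 and 6.81 FPKM (0.997 ± 0.26, limma adjusted p = 0.0215), and Fgd5 at 1.84, 1.15 and 0.921 against 2.79, 3.80 and 2.74 (0.84 ± 0.19, limma adjusted p = 0.0122). Their ranges did not overlap.

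Egr4 stood at 0.385, 1.42 and 1.44 FPKM in ITD and 1.91, 3.89 and 3.84 in IRE1_KO_ITD (1.03 ± 0.25, limma adjusted p = 0.0173). Esam stood at 14.7, 6.47 and 4.22 against 18.96, 17.8 and 13.4 FPKM (1.05 ± 0.33, limma adjusted p = 0.0453), with ranges that overlapped through ITD replicate 1. Egr4 and Lmo2 were thus called higher under both comparisons of the Ern1 label, which share no library. Egr4 reached the filter through the group with the label alone in both, so a rise was built into it. Its call here was lost without IRE1_KO_ITD replicate 2 or 3 and in a fit of the compared libraries alone. The IRE1_KO libraries of the other comparison are all tagged. The share of all tested genes called higher in both was not counted. Lmo2 rose by 0.64 ± 0.14, Mllt3 by 0.48 ± 0.12 and Gata3 by 0.76 ± 0.23. The falls were Apoe, at 13.4, 25.9 and 26.1 against 9.43, 12.2 and 13 FPKM (-0.81 ± 0.24, limma adjusted p = 0.0342), and Ly6a, at 91.8, 174 and 128 against 62.1, 85.7 and 84.8 (-0.72 ± 0.21, limma adjusted p = 0.0354).

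Several members that fell with Flt3-ITD did not pass here. Pdzk1ip1 differed by 0.17 ± 0.26, Procr by 0.42 ± 0.25, Fhl1 by -0.06 ± 0.20, Tek by -0.20 ± 0.24 and Ndn by -0.50 ± 0.24. Slamf1 (0.27 ± 0.22) and Angpt1 (0.17 ± 0.22) did not pass either. Hlf stood at 13.7, 7.56 and 6.597 FPKM in ITD and 13.9, 16.0 and 14.9 in IRE1_KO_ITD (0.69 ± 0.23, limma adjusted p = 0.0594). Its ranges did not overlap, and it passed once ITD replicate 1 was left out. Without ITD replicate 1 there were 12 rises, with Hlf and Tal1 added, and 2 falls; without ITD replicate 2 or 3 or IRE1_KO_ITD replicate 2 or 3 there were 6 rises and 0 falls, and without IRE1_KO_ITD replicate 1 there were 7 rises and 0 falls. With sex as a covariate 6 rose and 0 fell, without Mecom, Gata3, Esam, Mllt3, Apoe and Ly6a. Tgm2, Tie1, Gata2, Fgd5 and Lmo2 kept their call in every alternative run.

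**Figure D4:**
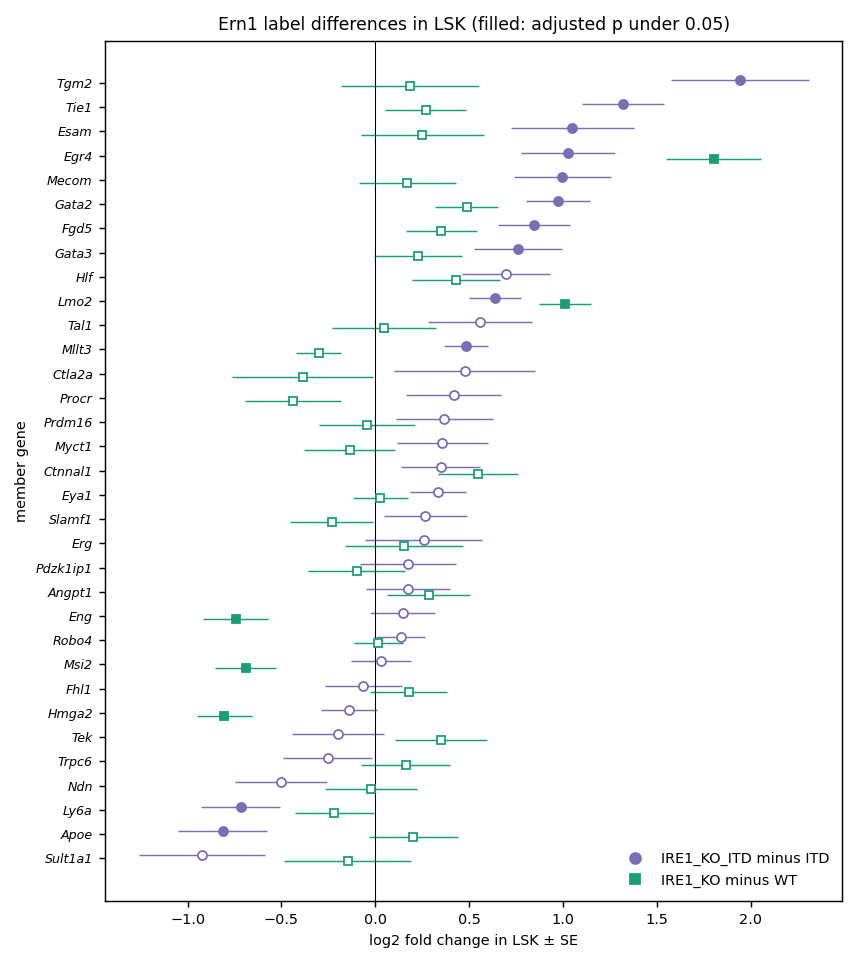
Log2 fold change ± SE of 33 members for the Ern1 label in LSK, with Flt3-ITD (circles) and without it (squares), ordered by the first; filled symbols have limma adjusted p under 0.05. Tgm2, Tie1 and Mecom are filled for IRE1_KO_ITD against ITD and open for IRE1_KO against WT, and the difference between these values is tested by the interaction given in the text.

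Whether the Flt3-ITD difference in LSK depended on the Ern1 label was tested as an interaction. Only 1 of 33 members passed, where 1.36% of all tested genes were higher and 5.58% lower. That was Mllt3, at 5.39, 5.77 and 6.08 FPKM in WT, 2.80, 2.22 and 2.42 in ITD, 4.58, 4.002 and 4.85 in IRE1_KO and 3.54, 4.51 and 3.57 in IRE1_KO_ITD. Its Flt3-ITD difference was -0.96 without and -0.17 with the Ern1 label (interaction 0.79 ± 0.17, limma adjusted p = 0.0215). The next were Eng (0.89 ± 0.24, limma adjusted p = 0.0525), Tie1 (1.05 ± 0.31, limma adjusted p = 0.0653) and Tgm2 (1.76 ± 0.52, limma adjusted p = 0.0667). Mllt3 did not pass without WT replicate 2, ITD replicate 2 or 3, IRE1_KO replicate 2 or IRE1_KO_ITD replicate 2 (limma adjusted p = 0.0521 to 0.0584), nor with sex as a covariate (limma adjusted p = 0.135). Without ITD replicate 1, 6 were higher (Mllt3, Esam, Mecom, Msi2, Tgm2 and Tie1) and 2 lower (Apoe and Egr4). The 1ng tag is inside this interaction too. Under quantile normalization the split of all calls went from 163 higher and 667 lower to 232 and 353, and Eng was added to Mllt3.

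In GMP, 19 of the 34 members could be tested. ITD against WT gave 1 rise and 0 falls, where 7.37% of all 11249 tested genes rose and 3.32% fell. Sult1a1, which reached the expression filter through ITD alone, stood at 1.31, 0.841 and 1.01 FPKM in WT and 7.19, 3.78 and 4.502 in ITD (1.55 ± 0.41, limma adjusted p = 0.0368). IRE1_KO_ITD against IRE1_KO gave 3 rises and 1 fall (8.47% and 4.5% of all tested genes). Of the 3 rises, Sult1a1 and Msi2 reached the filter through IRE1_KO_ITD alone. Sult1a1 rose there too, with 1.001, 0.618 and 0.821 FPKM in IRE1_KO and 6.10, 9.82 and 1.71 in IRE1_KO_ITD (1.71 ± 0.41, limma adjusted p = 0.0224). The ranges did not overlap in either comparison, although IRE1_KO_ITD replicate 3 was far below the other IRE1_KO_ITD libraries.

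Gata2, which also acts in basophil and mast cell progenitors, was the GMP member that fell, with 10.1, 9.96 and 13.9 FPKM in IRE1_KO and 4.34, 3.93 and 5.47 in IRE1_KO_ITD (-1.14 ± 0.16, limma adjusted p = 0.00178). In WT it stood at 8.14, 7.25 and 6.995 FPKM and in ITD at 4.54, 5.001 and 6.16 (-0.45 ± 0.16, limma adjusted p = 0.0927), so that all 6 Flt3-ITD libraries were below all 6 others. Summed FPKM of 7 basophil and mast cell genes moved with it, at 392.5 to 577 in WT, 133 to 225 in ITD, 344 to 744 in IRE1_KO and 181.5 to 280.4 in IRE1_KO_ITD, and their part in the Gata2 difference was not tested. Msi2 stood at 0.885, 1.41 and 1.04 FPKM in IRE1_KO and 2.22, 2.13 and 1.87 in IRE1_KO_ITD (0.55 ± 0.13, limma adjusted p = 0.0221). Ctnnal1, an alpha-catenin-like protein, stood at 1.17, 1.39 and 1.33 against 1.86, 2.81 and 2.93 FPKM (0.61 ± 0.17, limma adjusted p = 0.0417). Both were low, and their ranges did not overlap.

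Apoe was lower in both Flt3-ITD groups of GMP without passing. It stood at 56.9, 94.2 and 84.3 FPKM in WT and 15.9, 43.3 and 48.6 in ITD (-1.22 ± 0.42, limma adjusted p = 0.0871), and at 49.2, 74.0 and 63.4 in IRE1_KO and 43.0, 38.2 and 17.9 in IRE1_KO_ITD (-0.96 ± 0.42, limma adjusted p = 0.164). Along with Gata2 it was the member whose 6 Flt3-ITD libraries were all below the 6 others (3.2% of all tested genes), while Sult1a1 and Msi2 were above (6.03%). Neither comparison of the Ern1 label in GMP called a member: IRE1_KO against WT gave 0 of 19 (0.0267% of all tested genes higher and 0.507% lower; limma, 1 member at an unadjusted p under 0.05), and IRE1_KO_ITD against ITD gave 0 of 19 (0.916% higher and 0.916% lower; limma, 5 members at an unadjusted p under 0.05). The interaction in GMP called 0 of 11249 genes (0%), with 1468 genes and 1 member at an unadjusted p under 0.05 in limma.

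The Sult1a1 rise in ITD GMP was lost when any library other than ITD replicate 2 was left out (limma adjusted p = 0.0598 to 0.119), and with the replicate number as a block (limma adjusted p = 0.0516). In the other comparison the rises were 0 without IRE1_KO replicate 1 or 3 or IRE1_KO_ITD replicate 2, 1 without IRE1_KO_ITD replicate 1, and 2 otherwise, while Gata2 kept its call throughout. The splits of all calls moved with the scaling here as well. With median-ratio size factors that of ITD against WT went from 829 higher and 374 lower to 863 and 867, that of IRE1_KO_ITD against IRE1_KO from 953 and 506 to 706 and 736, and that of IRE1_KO_ITD against ITD from 103 and 103 to 81 and 143. Without ITD replicate 1, whose late neutrophil genes summed to 2423 FPKM against 94580 and 37840 in the other ITD GMP libraries, Ctnnal1 passed in IRE1_KO_ITD against ITD.

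The Flt3-ITD difference in GMP was then compared with that in LSK, without the Ern1 label, in a fit of all 24 libraries. For 13 of 33 members it was higher in GMP and for 0 lower, where 6.45% of all 12348 tested genes were higher and 7.1% lower. The LSK libraries are those of ITD against WT LSK, so the results are not independent. All of the 13 but Msi2 were called lower there. Ndn, Fhl1, Tek, Slamf1, Trpc6 and Robo4 reached the expression filter through LSK alone, so with a fall in LSK a higher value was built into them. The median over members was 0.83 and over all genes 0.00. Ndn had the largest value (2.67 ± 0.29, limma adjusted p = 4.8e-05), followed by Procr (1.71 ± 0.32) and Pdzk1ip1 (1.58 ± 0.45). These genes were low in GMP of either genotype. Ndn stood at 0.0632, 0.0226 and 0 FPKM in WT GMP and at 0, 0 and 0.0215 in ITD GMP, and Procr at 0.679, 0.503 and 0.504 against 0.970, 0.601 and 0.550, so a like fall could not have been seen there. The others were Fhl1 (1.35 ± 0.25), Tek (1.06 ± 0.27), Hlf (1.01 ± 0.30), Slamf1 (0.99 ± 0.27), Trpc6 (0.90 ± 0.27), Mllt3 (0.80 ± 0.16) and Robo4 (0.74 ± 0.17), with limma adjusted p of 0.0353 or lower; of these all but Hlf and Mllt3 were under 1 FPKM in every GMP library.

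Other members of the 13 were expressed in GMP. Lmo2 stood at 91.8, 84.7 and 95.8 FPKM in WT GMP and 146, 105 and 84.9 in ITD GMP, and the difference of its Flt3-ITD effects was 1.16 ± 0.27 (limma adjusted p = 0.0110). Eng stood at 6.97, 6.602 and 6.31 FPKM in WT GMP and 12.2, 9.71 and 11.8 in ITD GMP, opposite in sign to LSK, and the difference was 1.35 ± 0.28 (limma adjusted p = 0.00535). The Eng difference within GMP did not itself pass (limma adjusted p = 0.0602). Msi2 was also detected in both, with a difference of 0.75 ± 0.21. Gata2 (0.53 ± 0.24, limma adjusted p = 0.135) and Apoe (0.83 ± 0.52, limma adjusted p = 0.287) did not pass. The count was 8 without ITD LSK replicate 3 or WT GMP replicate 3, 17 without ITD LSK replicate 1 and 7 with a pseudocount of 0.1, under which Ndn, Procr, Fhl1, Eng, Lmo2, Mllt3 and Msi2 remained.

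**Figure D5:**
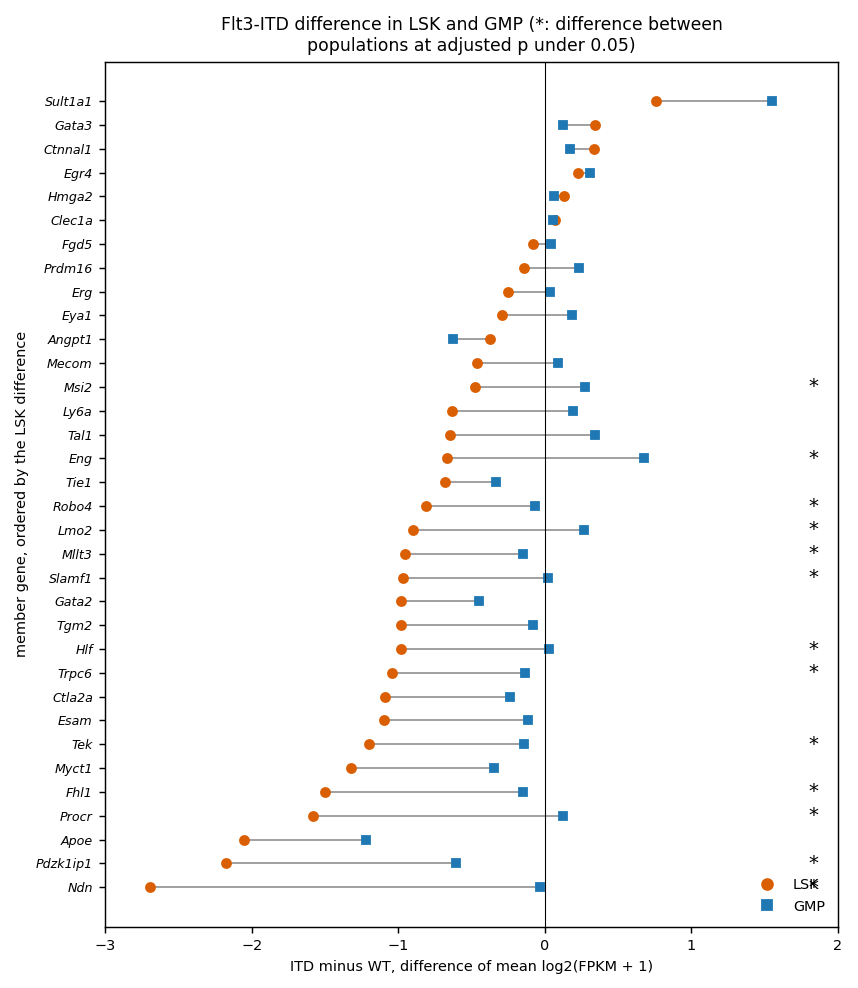
Difference of mean log2(FPKM + 1) between ITD and WT for each of the 34 members in LSK (circles) and GMP (squares), ordered by the LSK value; stars mark the 13 members whose difference between populations had limma adjusted p under 0.05. LSK values lie to the left of GMP values for most rows, by the most for Ndn, and Eng is on opposite sides of 0.

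A further list of 72 genes tied to stem cells (such as the Hox, cyclin kinase inhibitor and cytokine signalling genes) was read beside the members; it was written with earlier results of these data known. In ITD against WT LSK, 20 of 59 tested genes fell and 5 rose, with a median of -0.45. These are 33.9% and 8.47%, against 7.27% and 14.9% of all tested genes. Those with the smallest p were Socs2, a STAT5-induced inhibitor of cytokine signalling (3.95 ± 0.16), Ifitm1 (2.43 ± 0.12) and Mycn (1.502 ± 0.15), which rose, and Hoxa5, which fell (-0.97 ± 0.11). In IRE1_KO_ITD against IRE1_KO LSK, 22 of 59 fell and 8 rose (37.3% and 13.6%, against 19.6% and 11.7% of all tested genes). Socs2 (4.69 ± 0.16), Ifitm1 (3.01 ± 0.12) and Mycn (1.84 ± 0.15) again rose while the cell cycle inhibitor Cdkn2c fell (-1.97 ± 0.16). The limma adjusted p of these genes was 0.000604 or lower. The list thus held genes that moved strongly upward beside those that fell. Of the members, 0 rose in ITD against WT and 2 rose in IRE1_KO_ITD against IRE1_KO. Both lists were chosen with earlier results of these data known, so this contrast is a description only.

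In IRE1_KO_ITD against ITD LSK, 11 of the 59 rose and 2 fell (18.6% and 3.39%, against 13.3% and 6.96% of all tested genes). The smallest p belonged to Itga2b (CD41, 1.17 ± 0.17), Smad3 (0.83 ± 0.14), the quiescence-linked Cdkn1c (1.31 ± 0.22) and the TGF-beta co-receptor Tgfbr3 (1.49 ± 0.26), with limma adjusted p of 0.00410 or lower. In IRE1_KO against WT LSK, 14 rose and 6 fell (23.7% and 10.2%, against 21% and 2.72% of all tested genes), so the rises were near the share of all genes. The smallest p belonged to Lyl1 (-1.37 ± 0.15), Bmi1 (1.53 ± 0.17), Ldb1 (1.18 ± 0.14) and Cdkn2c (1.26 ± 0.16), with limma adjusted p of 0.000171 or lower and with the tag confounded as above. In WT, 50 of 60 tested genes were lower in GMP than in LSK and 1, Gfi1, was higher (31.3% and 19% of all tested genes). Those that fell included Hoxa10 (-2.98 ± 0.14), Meis1 (-3.58 ± 0.18) and Mycn (-3.73 ± 0.23). In GMP, 8 of 44 rose and 4 fell in ITD against WT (18.2% and 9.09%, against 7.37% and 3.32% of all tested genes), led by Socs2 (5.19 ± 0.34), Ifitm1 (3.01 ± 0.29), Cd81 (-0.68 ± 0.08) and Gfi1b (-1.28 ± 0.21). There, 12 rose and 5 fell in IRE1_KO_ITD against IRE1_KO (27.3% and 11.4%, against 8.47% and 4.5% of all tested genes), led by Socs2 (5.44 ± 0.34), Ifitm1 (4.496 ± 0.29), Mycn (2.02 ± 0.27) and Hoxa7 (1.38 ± 0.22). In IRE1_KO_ITD against ITD GMP, Gpr56 (0.98 ± 0.20) and Mycn (1.28 ± 0.27) rose and 0 fell (0.916% and 0.916% of all tested genes). In IRE1_KO against WT GMP 0 of 44 passed in limma, with 8 at an unadjusted p under 0.05, where 0.0267% of all tested genes rose and 0.507% fell. The Flt3-ITD difference was higher in GMP than in LSK for 19 of 60 tested genes and lower for 2 (31.7% and 3.33%, against 6.45% and 7.1% of all tested genes). The smallest p belonged to Hoxa5 (1.501 ± 0.18), Cd82 (0.93 ± 0.17), Hoxa7 (1.33 ± 0.26) and Rora (0.77 ± 0.15), with limma adjusted p of 0.00458 or lower.

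Across genotypes, ITD had the lowest mean in LSK for 20 of the 34 members, IRE1_KO_ITD for 8, WT for 3 and IRE1_KO for 3. The share of all tested genes lowest in each group was not counted, so these counts are a description. The order for Gata2 was IRE1_KO, WT, IRE1_KO_ITD and ITD from high to low, with ITD and IRE1_KO each without overlap with its neighbour and WT overlapping IRE1_KO_ITD. For Mecom it was IRE1_KO_ITD, IRE1_KO, WT and ITD, where only the first step was without overlap. For Hlf it was IRE1_KO, WT, IRE1_KO_ITD and ITD, with no overlap at the last and the middle step. In GMP the lowest means were spread over the genotypes, with 11 members lowest in WT, 9 in IRE1_KO_ITD, 8 in IRE1_KO and 6 in ITD. These counts include the 13 members under 1 FPKM in every GMP library, whose order is one of low values.

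The members lie on many chromosomes. By RefSeq on GRCm38.p6, Ndn is at chromosome 7, 62348277 to 62349928, Apoe at chromosome 7, 19696244 to 19701310, and Pdzk1ip1 at chromosome 4, 115088708 to 115093894. Tal1 is its neighbour at chromosome 4, 115056426 to 115071755, and shared neither of its Flt3-ITD calls in LSK: Tal1 stood at 5.22, 5.47 and 2.68 FPKM in WT and 4.18, 1.42 and 2.05 in ITD (-0.65 ± 0.28, limma adjusted p = 0.116), with ranges that overlapped.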

How the data were processed

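RNA of 24 libraries (8 groups, 3 libraries each) was analysed from FPKM values as the authors deposited them, one table per library, made with STAR and Cufflinks on mm10 per the submitters' processing notes, with versions not given in the sources used here. More than 1 library kit is named in the labels. FPKM carry no read totals, so no count test was used and the depth is unknown. Values were taken to log2(FPKM + 1) and tested with limma 3.58.1 (R 4.3.3, eBayes with trend), over every gene that reached 1 FPKM in 3 or more of the fitted libraries. Within a population the fit held its 12 libraries, and comparisons between populations used a fit of all 24. Each comparison was adjusted by Benjamini-Hochberg over all genes tested, with a threshold of 0.05. The fit was first tested on simulated data with known changes and independent normal noise. Over the comparisons simulated, 65% to 84% of changes of 1 log2 unit and 92% to 96% of changes of 2 units were recovered, with 5 to 13 false calls. No change was placed in genes of low base level, so the simulation does not cover members near or under 1 FPKM.

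The members, the further lists and the tests were chosen with earlier results of these data known. Every member that passed was named with its fold change, save in GMP against LSK, where only those with the largest differences and Egr4 were. By rule, up to 8 per comparison, those with the largest differences, got their value in every library. Others, such as Tie1, Robo4 and Lmo2 in ITD against WT LSK, got theirs beyond this rule. Hlf, Mecom, Procr, Fgd5, Slamf1, Gata2, Gata3, Ly6a, Angpt1 and Apoe were given in the Flt3-ITD comparisons of LSK whatever their p, Ern1, Flt3 and Kit as checks, and up to 4 genes with the smallest p from the further list, of which 1 is not reported here. Genes named beyond this, such as Tal1, Msi2 or Eng where they did not pass, and Mir6236, were chosen after their values were seen. Alternatives changed the pseudocount (0.1), the filter, the scaling, the libraries in the fit, a sex term, a replicate block and single libraries left out. A fit without the tagged libraries was added after seeing the data. Upstream sequences came from RefSeq (GRCm38.p6). Figures were drawn with matplotlib 3.10.9.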

Additional observations from a re-analysis of the deposited data

Results flagged for a closer look

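For 13 members the effect of Flt3-ITD differed between GMP and LSK by limma's interaction term (GMP minus LSK, log2(FPKM + 1), with limma adjusted p): Ndn 2.67 (4.8e-05), Procr 1.71 (0.0031), Pdzk1ip1 1.58 (0.0289), Fhl1 1.35 (0.00289), Eng 1.35 (0.00535), Lmo2 1.16 (0.011), Tek 1.06 (0.0172), Hlf 1.01 (0.0312), Slamf1 0.99 (0.0244), Trpc6 0.90 (0.0353), Mllt3 0.80 (0.00515), Msi2 0.75 (0.024) and Robo4 0.74 (0.0105). Of all 12348 tested genes, 6.45% were higher and 7.1% lower. All of the 13 but Msi2 were called lower in ITD against WT LSK, which uses the same LSK libraries, so the results are not independent. Ndn, Fhl1, Tek, Slamf1, Trpc6 and Robo4 were under 1 FPKM in every GMP library, so a like fall could not have been seen there. Procr, Hlf and Mllt3 had means under 1 FPKM in WT GMP and in ITD GMP. The mean of Pdzk1ip1 was 1.19 FPKM in WT GMP and 0.468 in ITD GMP, so it was low there and also lower in ITD. With a pseudocount of 0.1, Pdzk1ip1, Hlf, Slamf1, Tek, Robo4 and Trpc6 did not pass. For Mllt3 the effect in LSK also differed between libraries with and without the Ern1 label, by 0.79 (limma adjusted p = 0.0215). It did not pass with sex as a covariate, and the tag of the IRE1_KO LSK libraries is inside this interaction.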

How the results depend on the processing

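Of 1564 repeats of the single members named by rule in a comparison (those that passed, and in the Flt3-ITD comparisons of LSK the 10 given whatever their p), 1345 kept direction and side of the threshold, 210 kept direction but no longer passed, 7 newly passed and 2 reversed. Over all members tested there were 57 instances of a member newly passing under an alternative, 14 of them in ITD against WT LSK. The reversals were of Fgd5 in ITD against WT LSK, which did not pass (0.01 without WT replicate 2 and 0.041 without ITD replicate 3; lowest -0.24 and highest 0.041 over single libraries left out). The causes were not tested. In IRE1_KO_ITD against ITD LSK (10 rises, 2 falls) the rises were 6 with quantile normalization and 6 with the sex term, and the falls were 0 without a filter, 1 with quantile normalization, 0 with only the compared libraries fitted, 0 with the sex term and 1 without the tagged libraries. In ITD against WT GMP (1 rise, 0 falls) the rises were 0 without a filter, 0 with quantile normalization, 0 with the replicate block, 2 with only the compared libraries fitted and 0 with the sex term, and quantile normalization gave 1 fall, Gata2. In IRE1_KO_ITD against IRE1_KO GMP the rises went from 3 to 0 with only the compared libraries fitted. The members whose Flt3-ITD effect was higher in GMP went from 13 to 7 with a pseudocount of 0.1. The interaction in LSK went from 1 to 2 with quantile normalization, 2 with median-ratio size factors and 0 with the sex term. Leaving out single libraries gave these ranges: 1 to 4 rises in IRE1_KO_ITD against IRE1_KO LSK, 6 to 12 rises and 0 to 2 falls in IRE1_KO_ITD against ITD LSK, 0 to 1 rises in ITD against WT GMP, 0 to 2 rises in IRE1_KO_ITD against IRE1_KO GMP, 0 to 1 rises in IRE1_KO_ITD against ITD GMP, 8 to 17 members for the effect in GMP against LSK, and 0 to 6 higher and 0 to 2 lower for the interaction in LSK. A fit of the compared libraries alone gave 9 members for the effect in GMP against LSK, without Hlf, Slamf1, Msi2 and Trpc6. For the interactions with the Ern1 label such a fit would be no different, since they use every group of a population. Scaling moved the median of all genes from 0.14 to -0.08 (quantile) in IRE1_KO against WT LSK, from -0.14 to 0.02 in the interaction in LSK, and from -0.11 to 0.02 in GMP against LSK.

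Libraries with the same replicate number were not taken as pairs. Their deviations from the group means correlated between -0.338 and 0.236, and in 2 of 28 pairs of groups every library correlated best with its own number. ITD LSK with ITD GMP was among these, at 0.105 to 0.198. LSK with GMP gave 0.05 to 0.135 in WT, 0.044 to 0.236 in IRE1_KO and -0.1 to 0.022 in IRE1_KO_ITD. The sexes of same-numbered LSK and GMP libraries matched in WT, ITD and IRE1_KO but not in IRE1_KO_ITD. The main fit of both populations treats all libraries as independent. With the replicate number as a block, 17 members fell in ITD against WT LSK and 10 fell in IRE1_KO_ITD against IRE1_KO LSK. In IRE1_KO_ITD against ITD LSK, 9 rose and 3 fell. In the fit of both populations the block was genotype with replicate number, and 14 members had a higher effect in GMP. Without read totals, the precision of low values such as those of Ndn, Tek and Fhl1 in Flt3-ITD libraries is unknown.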
